A study of Mus musculus with 5 samples.

Results

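Mesenchymal progenitors of mouse hindlimb muscle were compared between day 2 and day 4 after notexin, a venom phospholipase used to destroy muscle fibres. The cells were chosen from the day 2 and day 4 libraries by 3 limits. A barcode needed at least 500 detected genes and at most 10% of its unique molecular identifiers (UMIs, each standing for 1 captured transcript) from mitochondrially encoded genes. Its summed UMIs of the tendon cell genes Tnmd, Fmod, Kera and Chad had to stay under 5, and so did those of the mural cell genes Rgs5, Kcnj8, Abcc9 and Higd1b. The limits kept 2407 of 2556 barcodes at day 2 and 3810 of 4140 at day 4, which is 6217 of the 17213 barcodes of the series. All mice were C57BL/6J and carried the genotype Hic1CreERT2/CreERT2;Rosa26LSLtdTomato/+, so that tamoxifen switched on the red protein tdTomato in cells expressing Hic1 and left their descendants labelled. At 8 weeks of age they received 2.5 mg of tamoxifen in 100 uL of oil on each of 5 days, and the experiments began after 10 days of washout. Labelled cells of the whole hindlimb muscle were then sorted and captured for single-cell 3' sequencing. The other libraries, from quiescent (uninjured) muscle and from days 1 and 14, were used only for levels. Each time point was 1 library, and the number of mice behind it is not given in the sources used here. Library and time point therefore cannot be told apart, no difference has a replicate check, and intervals in parentheses are 95% intervals for counting error only.

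The kept cells held 31644425 UMIs at day 2 and 30059856 at day 4, with medians of 11165 and 7071.5 UMIs per cell. Levels are in CPM, a gene's UMIs scaled to the total over a library's kept cells, and where 5 levels are listed they run in the order quiescent, day 1, day 2, day 4 and day 14. All 8 progenitor markers checked, among them Pdgfra, Dcn, Lum, Ly6a and Cd34, were above 20 CPM in both libraries. The 12 macrophage and monocyte markers summed to 6.64 CPM at day 2, with Ptprc and Adgre1 at 0, and to 20.7 CPM at day 4, with no marker at 0 and none above 20 CPM. The 7 myogenic markers summed to 1.99 and 18.1 CPM and the 9 muscle fibre markers to 16.4 and 50.7 CPM. The 8 endothelial markers summed to 13.2 and 8.98 CPM and the 5 T and NK cell markers to 0.158 and 0 CPM. The 7 Schwann cell markers summed to 21.7 and 16.4 CPM. Cells with at least 3 UMIs of a list of another cell type numbered 48 at day 2 and 59 at day 4. Schwann cell markers were behind 34 and 12 of these, macrophage and monocyte markers behind 6 and 30, and myogenic markers behind 4 and 16. Only 9 barcodes were shared between the kept cells of both libraries. Hic1 itself was at 20.95 CPM at day 2 and 30.9 CPM at day 4, Pdgfra at 216 and 189.9 CPM, Ly6a at 2975 and 2562 CPM and tdTomato at 745 and 940.02 CPM, all with ratios under 2.

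Mesenchymal progenitors are the fibroblast-like cells that lie between muscle fibres. After injury they are known to leave quiescence, to divide, to signal to incoming leukocytes and to lay down a provisional matrix in which fibres regrow. Genes of DNA replication are classically switched on by E2F factors as a cell enters S phase, and many mitotic genes through promoters with a CCAAT box and a cell cycle homology region. Interferons act on many cell types through transcription factors that include STAT2 and IRF9 and bind interferon-stimulated response elements and raise antiviral and antigen presentation genes.

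Promoter windows are shown for the pair of DNA replication genes and the pair of mitosis genes with the largest differences among the members with an entry, and for Isg15 because its window held the element searched for. The sequences are from RefSeq (GRCm38.p6), run from 250 bases before to 50 after the start of the gene, and are written 5' to 3' on the strand of the gene. Capitals mark matches on either strand to an E2F site or the CCAAT box in Mcm5 and Rrm2, both DNA replication genes. In the mitotic genes Top2a and Prc1 they mark the CCAAT box or the cell cycle homology region, searched as TTTGAA. In Isg15 they mark the core of the interferon-stimulated response element, searched as TTTC, 2 bases of any kind and TTTC. Mcm5 (chr8:75109259-75109558, plus strand) and Rrm2 (chr12:24708004-24708303, plus strand) come first.
Mcm5: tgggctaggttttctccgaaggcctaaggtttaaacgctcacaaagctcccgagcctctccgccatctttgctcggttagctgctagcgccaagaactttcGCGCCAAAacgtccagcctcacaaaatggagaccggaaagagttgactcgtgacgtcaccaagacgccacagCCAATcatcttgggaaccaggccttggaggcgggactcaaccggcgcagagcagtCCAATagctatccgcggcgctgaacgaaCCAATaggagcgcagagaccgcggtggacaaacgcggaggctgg
Rrm2: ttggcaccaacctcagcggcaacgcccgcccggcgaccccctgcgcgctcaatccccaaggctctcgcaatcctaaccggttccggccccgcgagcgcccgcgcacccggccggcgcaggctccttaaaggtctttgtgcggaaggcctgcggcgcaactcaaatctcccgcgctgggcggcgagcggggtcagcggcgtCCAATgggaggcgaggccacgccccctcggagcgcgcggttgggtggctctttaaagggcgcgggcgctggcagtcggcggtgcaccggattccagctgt
Top2a (chr11:99024140-99024439, minus strand) and Prc1 (chr7:80294201-80294500, plus strand) follow.
Top2a: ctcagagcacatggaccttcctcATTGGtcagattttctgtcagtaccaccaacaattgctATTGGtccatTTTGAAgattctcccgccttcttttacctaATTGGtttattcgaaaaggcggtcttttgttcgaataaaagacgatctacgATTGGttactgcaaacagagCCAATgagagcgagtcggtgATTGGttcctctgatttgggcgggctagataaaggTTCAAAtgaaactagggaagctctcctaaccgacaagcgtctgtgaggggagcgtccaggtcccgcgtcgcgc
Prc1: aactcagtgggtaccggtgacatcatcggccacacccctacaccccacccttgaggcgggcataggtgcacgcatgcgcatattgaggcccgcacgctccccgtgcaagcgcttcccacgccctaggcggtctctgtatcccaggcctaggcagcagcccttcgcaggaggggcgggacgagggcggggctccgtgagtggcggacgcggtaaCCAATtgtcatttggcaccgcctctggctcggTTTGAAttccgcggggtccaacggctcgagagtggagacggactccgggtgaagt
Isg15 (chr4:156200769-156201068, minus strand) was chosen after the search was seen.
Isg15: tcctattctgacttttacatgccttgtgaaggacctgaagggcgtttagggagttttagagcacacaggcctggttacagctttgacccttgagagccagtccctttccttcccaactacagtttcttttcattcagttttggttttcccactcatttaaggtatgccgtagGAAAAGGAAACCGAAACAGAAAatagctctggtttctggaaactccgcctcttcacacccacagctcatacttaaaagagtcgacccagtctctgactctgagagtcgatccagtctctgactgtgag

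The Mcm5 window held 1 E2F match, 149 bases before the start, and 3 CCAAT boxes, and the Rrm2 window held 1 CCAAT box. Top2a had 2 matches to the cell cycle homology region, 179 and 23 bases before the start, with 6 CCAAT boxes between 227 and 58 bases before it. Prc1 had 1 of each, 5 and 37 bases before the start. Isg15 had 3 overlapping cores, 78, 72 and 66 bases before the start. Of 27025 promoter windows of this length, 18.1% held the cell cycle homology region, 37.9% a CCAAT box, 1.63% an E2F match and 3.49% the interferon core. Of the 31 mitosis genes with an entry, 21 held the cell cycle homology region and 24 a CCAAT box, and of the 23 DNA replication genes with an entry, 8 held an E2F match and 14 a CCAAT box. Only 36 of 48 interferon-stimulated genes had an entry (75%), and 21 of these 36 held the interferon core. A share over the whole list is not given, since the members without an entry could not be searched. The windows of Cxcl9 and Ifi44, the interferon-stimulated genes with the largest ratios, did not hold these letters. A match is a description of the letters and not a bound site.

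The comparison asks how the progenitors changed as they passed from day 2 to day 4. A gene was called higher or lower when its levels differed at least 2-fold and the larger of them reached 20 CPM. Of 5542 genes with that level, 384 (6.93%) were higher at day 4 and 209 (3.77%) lower. Of the 15 highest genes by log2 ratio among those reaching 100 CPM, 4 were on a matrix list (Mfap4, Tnc, Spp1 and Postn), 4 were interferon-stimulated (Cxcl9, Isg15, Ifit3 and Irf7) and 7 were on neither kind of list. Of the 15 lowest, 6 were chemokines and cytokines, 6 were sterol synthesis genes, and the others were S100a4, Prg4 and Rrm2. Scaling by trimmed mean of M-values (TMM) moved all log2 ratios by -0.12 and gave 312 higher (5.63%) and 274 lower (4.94%), so that the higher share of the calls went from 64.8% to 53.2%. Of the 136 listed genes called higher, 16 had a ratio under 2 with TMM, among them Ccl11, Cdkn1b, Tpm1, Psmb8, Ddx58 and Cd55. None of the 70 called lower could be lost, since TMM lowered every ratio by the same factor. The comparison was repeated in cells that had no mitosis or DNA replication UMI after each cell was thinned at random to 2500 UMIs, called cells without cycling UMIs here, which gave 231 higher and 78 lower genes. Of the 384 higher and 209 lower genes over all cells, 211 and 58 kept their call there, and 41 called genes turned sign. These counts include the mitosis and DNA replication genes. Of the 110 named and called genes outside those 2 lists, most of them named for large ratios, 77 had the same call there. A ratio more than 1.5 times closer to 1 was found for 42 of the 110. Members of each gene list are counted below against the 6.93% and 3.77% of all genes, and list medians, taken over members whose larger level reached 5 CPM, against a median log2 ratio of 0.07 over all 9567 such genes.

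**Figure D1:**
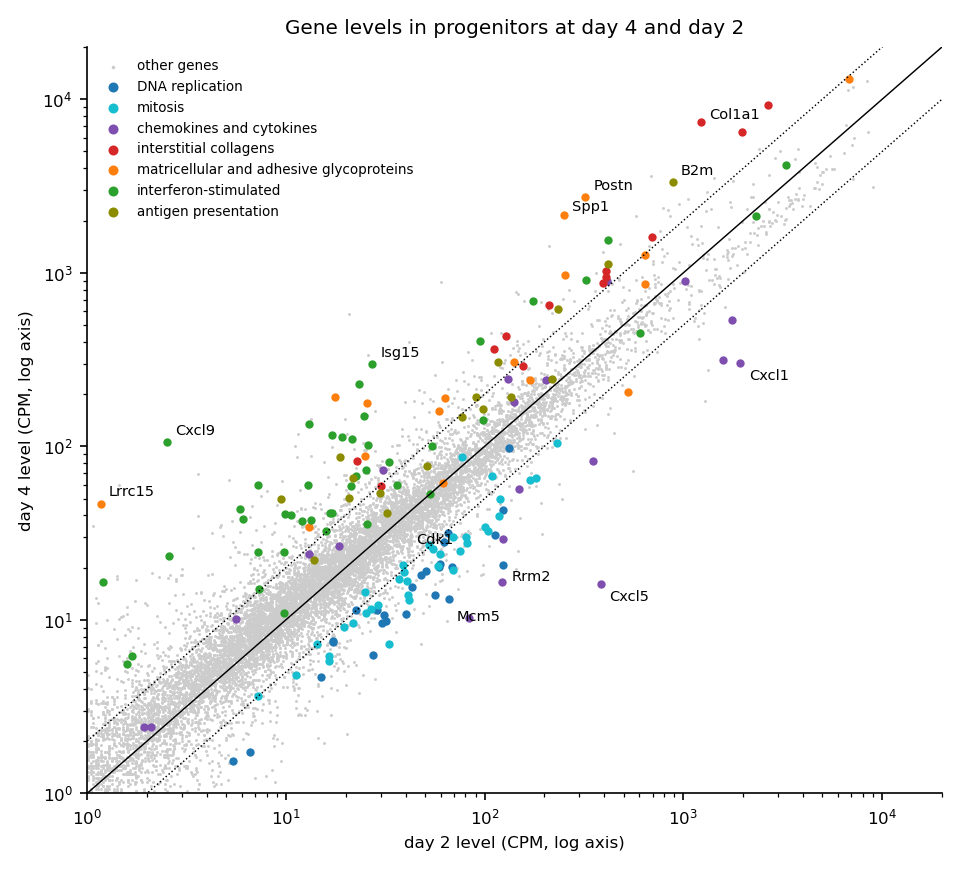
Each point is 1 gene, with its level at day 2 on the x axis and at day 4 on the y axis (CPM, both log axes). The solid line marks equal levels and the dotted lines 2-fold differences. The coloured points of the collagens, matricellular and interferon-stimulated lists lie mostly above the lines, and those of the DNA replication and mitosis lists mostly below.

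Cell division genes fell together. Of the 26 DNA replication genes, 21 reached 20 CPM, and 19 of these were lower at day 4 and none higher, with a median log2 ratio of -1.47. Rrm2, the small subunit of ribonucleotide reductase that supplies deoxynucleotides, stood at 2.46, 9.09, 124, 20.8 and 2.25 CPM over the time course. Its level was thus highest at day 2, and it fell 5.95-fold (5.47 to 6.49) by day 4. Mcm5, a subunit of the helicase that opens replication origins, stood at 1.92, 60.5, 65.8, 13.1 and 2.73 CPM, which made it as high on day 1 as on day 2, and then fell 5.02-fold (4.51 to 5.61). The helicase genes Mcm2 and Mcm3 had their highest levels on day 1, 56.8 and 75.5 CPM, and fell 3.21-fold and 4.05-fold from day 2 to day 4. Uhrf1, which couples replication to the copying of DNA methylation, fell 4.40-fold (3.75 to 5.17), the thymidine kinase gene Tk1 3.66-fold (3.41 to 3.94), the deoxyuridine triphosphatase gene Dut 3.70-fold (3.27 to 4.19) and Gins2, part of the replicative helicase, 3.38-fold (3.09 to 3.71). The exceptions were Slbp, which binds histone messenger RNA, at 133 and 97.54 CPM, and Pold1, a catalytic subunit of DNA polymerase delta, at 22.6 and 11.3 CPM and just inside the 2-fold limit.

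Mitotic genes followed a later course. Of 36 members, 30 reached 20 CPM, 25 were lower at day 4 and none was higher, with a median log2 ratio of -1.21. Cdk1, the kinase that drives entry into mitosis, stood at 1.78, 4.87, 101, 34.4 and 1.85 CPM over the time course. It was low at day 1, unlike the helicase genes, and the day 4 level was still well above that of the quiescent library. Aurkb, the kinase of the chromosomal passenger complex, fell 4.53-fold (3.91 to 5.27) from 33.0 to 7.29 CPM, and Top2a, which untangles sister chromatids, fell 3.595-fold (3.28 to 3.95) from 69.2 to 19.3 CPM. Prc1, which bundles microtubules of the central spindle, and Spc24, a kinetochore subunit, fell 3.21-fold and 3.19-fold. Cdca3 and Ccnb1, the cyclin partner of Cdk1, each fell 3.01-fold, and Ube2c, which marks mitotic cyclins for destruction, 2.92-fold. Pttg1, the separase inhibitor securin, differed from the rest at 77.04 and 86.6 CPM.

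Chromatin and tubulin genes that are abundant in dividing cells moved the same way, with 6 of 13 lower and none higher. They included the histone variant gene H2afz, at 1622 and 633 CPM, the tubulin gene Tubb4b, 2.71-fold lower (2.63 to 2.81), and Stmn1, which destabilises microtubules, 2.53-fold lower (2.44 to 2.63). Ran, the GTPase of nuclear transport and spindle assembly, was 2.87-fold lower (2.81 to 2.93). Genes that act before S phase moved less. Among 7 G1 cyclin and entry genes, only the cyclin gene Ccnd1 was lower, by 2.43-fold (2.25 to 2.63), while Myc stood at 137 and 93.8 CPM and Cdk4 at 333 and 233 CPM. Among 8 cell cycle exit genes, 3 were higher: the cyclin-dependent kinase inhibitor genes Cdkn1c, 4.22-fold (3.59 to 4.99), and Cdkn1b, 2.08-fold (1.89 to 2.28), and Txnip, an inhibitor of thioredoxin, 2.23-fold (2.11 to 2.35). All 3 had been higher still in the quiescent library, at 51.7, 52.1 and 305 CPM. In cells without cycling UMIs only Cdkn1c kept its call, at 3.09-fold, while Cdkn1b was at 1.54-fold and Txnip at 1.44-fold. The list's median log2 ratio was 0.07 there, against 0.49 over all cells.

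Genes of ribosome assembly and energy metabolism were mostly lower within the 2-fold limit. All 17 ribosome biogenesis genes with at least 5 CPM had a lower level at day 4, but only Nhp2 and Dkc1, both of the box H/ACA particles that modify ribosomal RNA, were called among the 16 at 20 CPM. Nhp2 was at 239 and 111 CPM and Dkc1 at 75.1 and 36.0 CPM, and both had peaked at day 1, at 532 and 168 CPM. Of 13 glycolysis genes 1 was lower, Pkm, the pyruvate kinase gene, 2.14-fold (2.10 to 2.18), and the list's median log2 ratio was -0.56. None of 17 oxidative phosphorylation genes was called and their median was -0.35. The share of all UMIs from ribosomal protein genes was 19.99% at day 2 and 14.6% at day 4.

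**Figure D2:**
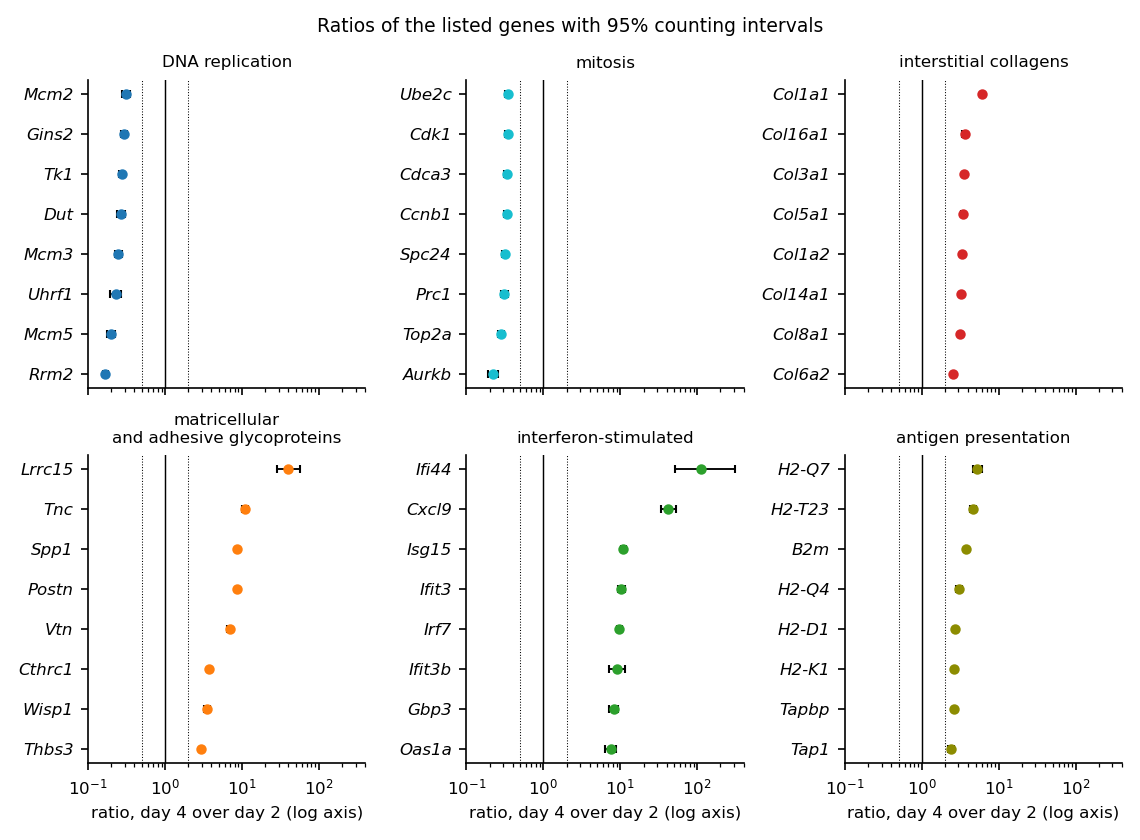
Day 4 over day 2 ratios (log axis) of up to 8 members of 6 lists, with bars for 95% counting intervals. Solid lines mark equal levels and dotted lines 2-fold differences. The DNA replication and mitosis genes lie left of the lower line, and the matrix, interferon-stimulated and antigen presentation genes shown lie right of the upper line.

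More of the listed secreted signals that draw leukocytes fell than rose. Of 17 chemokine and cytokine genes at 20 CPM, 9 were lower and 2 higher, with a median log2 ratio of -0.79. Cxcl5, a neutrophil attractant, stood at 0.137, 2842, 385.5, 16.1 and 0.241 CPM over the time course. It fell 23.9-fold (21.9 to 26.3) between day 2 and day 4, the largest difference on the lower side among genes with at least 100 CPM, and 6.83-fold in cells without cycling UMIs. The neutrophil attractants Cxcl2 and Cxcl1 fell 7.38-fold (6.72 to 8.12) and 6.38-fold (6.25 to 6.53), Cxcl1 from 1936 to 303 CPM. Ccl2 and Ccl7, which recruit monocytes, fell from 1575 to 314 CPM and from 1747 to 536 CPM, and Ccl9 fell 8.16-fold (7.25 to 9.22). Il6, the cytokine interleukin 6, fell 4.25-fold (4.07 to 4.44), Csf1, the macrophage growth factor, fell from 149.7 to 56.5 CPM, and Cxcl13, a B cell attractant, fell 4.20-fold (3.90 to 4.52). Cxcl13 had been at only 9.40 CPM on day 1, unlike the other chemokines that fell apart from Ccl9, then at 5.48 CPM. Against the rest, Ccl11, the eosinophil attractant eotaxin, rose from 415 to 893 CPM and Cxcl16 from 30.8 to 73.3 CPM. The T cell attractant genes Cxcl9 and Ccl5, which were not counted on this list, were 41.7-fold and 32.1-fold higher. A single cell held 40.5% of the Ccl5 counts at day 4. Cxcl12, which retains blood stem cells and lymphocytes, stood at 1016 and 895 CPM.

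Other genes on the lower side included S100a4, a calcium-binding protein of motile cells, which fell 7.04-fold (6.84 to 7.24) from 1277 to 181 CPM after standing at 144 CPM at day 1. Prg4, the joint lubricant lubricin, fell 4.87-fold (4.76 to 4.99), and Cd44, the hyaluronan receptor, from 170.4 to 81.6 CPM. Fgf7, a growth factor for epithelial cells, fell 2.88-fold (2.68 to 3.09) and Nr4a1, an immediate early nuclear receptor, 3.09-fold (2.93 to 3.26). Among 18 early response genes only Nr4a1 was lower and only the heat shock gene Hspa1b higher, while Fos stood at 2568 and 2561 CPM.

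Interstitial collagen genes rose as a group. Of 13 at 20 CPM, 11 were higher at day 4 and none lower, with a median log2 ratio of 1.66, and the list's summed level went from 8420 to 29497 CPM. Col1a1, a chain of type I collagen, stood at 2289, 487, 1227, 7366 and 3277 CPM over the time course. Its day 4 level was the highest of the 5 libraries and 6.00-fold (5.94 to 6.07) that of day 2. Col1a2, the other type I chain, rose 3.29-fold (3.26 to 3.32), and Col3a1, the chain of type III collagen, 3.50-fold (3.47 to 3.53) from 2650 to 9279 CPM. Col5a1, of the type V collagen that nucleates fibrils, rose 3.40-fold (3.28 to 3.52), Col6a2, of the beaded filaments around cells, 2.53-fold (2.47 to 2.58), and Col8a1 3.10-fold (3.02 to 3.19). Col14a1 and Col16a1, both fibril-associated collagens, rose 3.24-fold and 3.596-fold. The 2 members inside the limit were Col5a3, at 156 and 289.7 CPM, and Col12a1, at 30.3 and 59.2 CPM. The tenocyte marker genes summed to 78.0 CPM at day 2 and 308 CPM at day 4 in these cells. With both marker sums held under 2 UMIs, 11 collagens were still higher and the median was 1.65.

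Matricellular glycoproteins, which modulate how cells attach and signal without forming fibres, rose in most cases. Of 17 members at 20 CPM, 11 were higher and 1 lower, with a median log2 ratio of 1.43. Postn, the gene of periostin, which links collagen to integrins, stood at 100.1, 97.4, 319.6, 2723 and 226 CPM over the time course. It rose 8.52-fold (8.35 to 8.70) and was by far highest at day 4. Spp1, the gene of osteopontin, stood at 0.274, 22.9, 249.97, 2167 and 16.6 CPM, and rose 8.67-fold (8.47 to 8.87). A UMI of Spp1 was seen in 11.5% of cells at day 2 and 22.8% at day 4, against 61.9% and 79.5% for Postn. Tnc, the gene of tenascin C, stood at 2.05, 98.4, 17.6, 192 and 5.54 CPM, so it was high at day 1, lower at day 2 and highest at day 4, when it was 10.9-fold (10.0 to 11.95) over day 2. Lrrc15, a membrane protein of matrix-producing fibroblasts, rose 40.0-fold (28.9 to 57.1) from 1.17 to 46.8 CPM. At day 4 a UMI of Tnc was seen in 20.8% of cells and one of Lrrc15 in 16.2%. Cthrc1, a secreted collagen triple helix repeat protein, rose 3.78-fold (3.69 to 3.88), Wisp1, of the CCN family, 3.51-fold (3.24 to 3.81) and Vtn, the gene of vitronectin, 6.90-fold (6.41 to 7.44). Wisp2 of the CCN family was the 1 member called lower, from 524 to 205 CPM. Sparc, a collagen-binding protein, stood at 6810.0 and 13087 CPM and Fn1, the gene of fibronectin, at 641 and 1272 CPM, both inside the limit.

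Enzymes that process collagen moved far less than the chains. Of 20 members, 5 were higher and none lower, with a median log2 ratio of 0.37. Those 5 were Adamts2 and Bmp1, which trim the amino and carboxyl ends of procollagen, Plod2 and P4ha3, which hydroxylate lysine and proline, and Loxl2, which crosslinks fibrils, with ratios between 2.01 and 2.29. Serpinh1, the collagen chaperone, stood at 3830.5 and 3819.8 CPM and Lox, the lysyl oxidase gene, at 158 and 204 CPM. The 24 secretory pathway genes had 1 lower member, Sdf2l1, a cofactor of the chaperone Hspa5, and a median of -0.10. Under TMM scaling 3 of the 5, P4ha3, Bmp1 and Loxl2, had ratios under 2.

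Elastic fibre genes rose in 9 of 14 cases, with none lower. Mfap4, a microfibril-associated glycoprotein, had the second-highest ratio of all genes with at least 100 CPM, 27.7-fold (25.6 to 29.97), and stood at 160.5, 13.96, 20.9, 578 and 429 CPM from the quiescent library to day 14. Mfap2, which coats fibrillin, rose 5.09-fold (4.94 to 5.26) and Eln, the gene of elastin, 3.63-fold (3.48 to 3.79). Of 16 proteoglycan genes 7 were higher and 2, Prg4 and Cd44, lower. Itih5, whose product binds hyaluronan, rose 4.26-fold (4.08 to 4.44), and Aspn and Lum, which bind collagen fibrils, 3.04-fold and 2.52-fold. Basement membrane genes rose in 5 of 12 cases, among them Col15a1, 4.51-fold (4.24 to 4.80), the laminin gene Lamb1, 2.69-fold, and the nidogen genes Nid1 and Nid2, 2.66-fold and 2.70-fold. The summed level of that list, 1185 CPM at day 2 and 2383 at day 4, was still below the 4071 CPM of the quiescent library, whereas the collagen sum at day 4 was above its quiescent 16626 CPM.

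Proteases that cut matrix and their inhibitors had 7 of 16 members higher and none lower. Ctsk, the collagen-degrading cathepsin K, rose 3.51-fold (3.41 to 3.61), the membrane protease gene Mmp14 2.84-fold (2.71 to 2.98) and the inhibitor gene Timp2 2.64-fold (2.54 to 2.73). Mmp13, a collagenase, went from 0.253 to 45.7 CPM, 181-fold (91.4 to 419), but 1 cell held 23.02% of its day 4 counts, and without that cell the ratio was 139 (70.4 to 323). Timp1 stood at 1673 and 927 CPM. Contractile genes rose in 3 of 15 cases: Tagln, 6.63-fold (5.87 to 7.51) from 9.58 to 63.5 CPM, Myl9, 2.35-fold (2.18 to 2.54), and Tpm1, 2.02-fold (1.92 to 2.12). Acta2, the smooth muscle actin that defines myofibroblasts, stood at 14.2, 46.8, 131, 249.7 and 18.6 CPM from the quiescent library to day 14, a day 4 ratio of 1.90 (1.83 to 1.98). The mural marker genes, whose cells are rich in contractile genes, summed to 37.2 CPM at day 2 and 59.5 CPM at day 4. With both marker sums held under 2 UMIs, the number of higher contractile genes and the list's median ratio stayed within 1.5 times. The part of mural cells in the contractile difference was not tested.

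Signals to neighbouring cells also differed. Tgfb3, a transforming growth factor beta ligand, rose 5.81-fold (5.30 to 6.38) and the receptor gene Tgfbr2 2.61-fold (2.48 to 2.75), the only 2 of 9 members called. Of 12 growth factor genes 9 were higher and 1, Fgf7, lower. Mdk and Ptn, the related heparin-binding factors midkine and pleiotrophin, rose 9.10-fold (8.15 to 10.2) and 5.95-fold (5.52 to 6.42). Igf1, a growth factor for myogenic cells, rose from 126 to 313 CPM and Igfbp5, which binds it, 2.995-fold (2.92 to 3.07). The secreted Wnt antagonist genes Sfrp4 and Sfrp1 rose 3.27-fold and 3.17-fold. Cilp, a cartilage intermediate layer protein, rose 14.7-fold (14.0 to 15.4) from 60.3 to 884 CPM, Pdgfrl 13.0-fold (12.1 to 13.96), H19, an imprinted noncoding RNA, 9.60-fold (9.07 to 10.2), Itm2a 6.84-fold (6.66 to 7.02) and Fibin 10.7-fold (9.68 to 11.8). Hp, the gene of the haemoglobin scavenger haptoglobin, rose 10.2-fold (9.18 to 11.4) from 11.5 to 118 CPM, and was at 0.547 CPM in the quiescent library. In cells without cycling UMIs its ratio was 2.24 (1.81 to 2.78), and that of Cilp 6.73 (6.16 to 7.36).

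**Figure D3:**
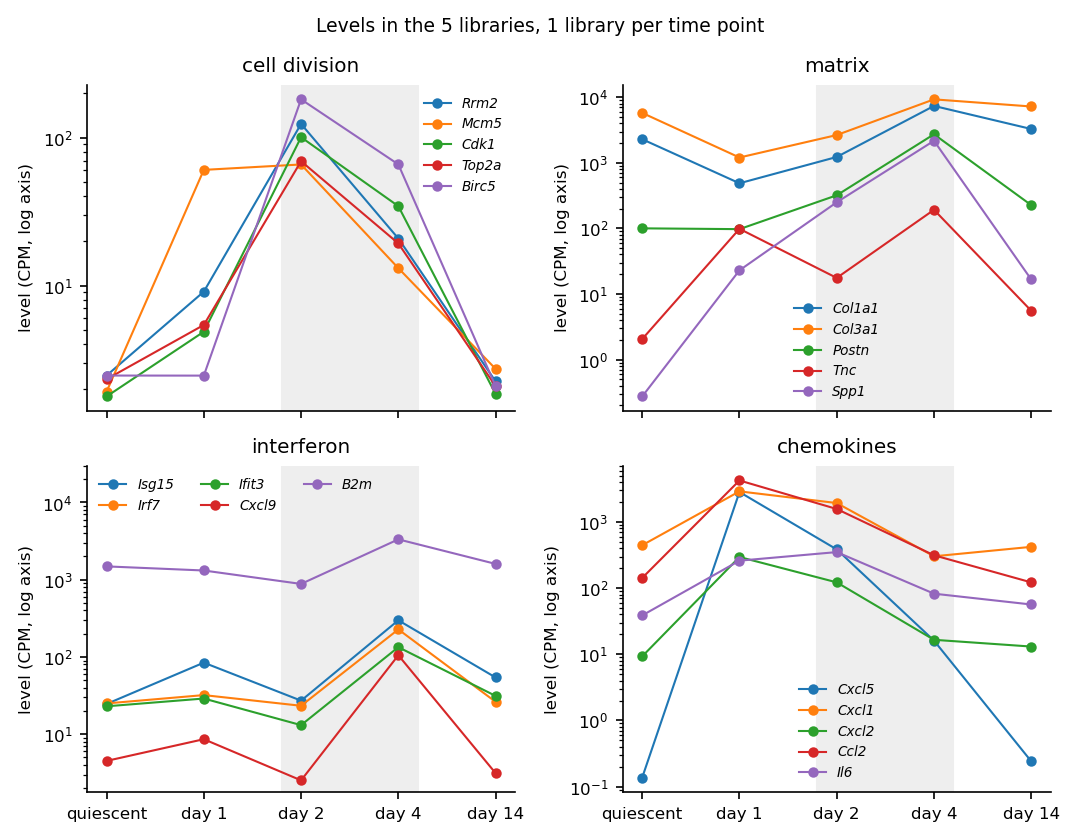
Levels (CPM, log axis) of 5 genes in each of 4 groups over the 5 libraries, with 1 library per time point and days 2 and 4 shaded. Division genes are highest at day 2 (Mcm5 as high at day 1), matrix and interferon genes at day 4, and chemokine genes at day 1, except Il6, which is highest at day 2.

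Interferon-stimulated genes formed the other large group that rose. Of 40 members at 20 CPM, 32 were higher at day 4 and none lower, with a median log2 ratio of 1.59. Isg15, a ubiquitin-like modifier, stood at 24.6, 84.4, 27.2, 298 and 54.3 CPM over the time course. It was above the quiescent level at day 1, back near it at day 2, and rose 11.0-fold (10.2 to 11.8) from there to day 4. Irf7, the factor that amplifies type I interferon, stood at 25.04, 32.1, 23.4, 227 and 26.3 CPM and rose 9.74-fold (9.03 to 10.5). Ifit3, which restricts viral RNA, rose 10.2-fold (9.23 to 11.3) from 13.1 to 134 CPM, though its reads and those of its near-copy Ifit3b, 9.04-fold (7.18 to 11.5) higher, may be split between them. Oas1a, which senses double-stranded RNA, rose 7.47-fold (6.401 to 8.76), and Gbp3, a guanylate-binding protein of a family of close paralogs, 8.21-fold (7.15 to 9.46). Ifi44 had 0.190 CPM at day 2 and 21.3 at day 4, 112-fold (51.3 to 307) higher, an interval widened by the few counts at day 2.

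The signalling factor genes Stat2 and Irf9 moved less. They rose from 16.7 to 41.6 and from 21.2 to 58.7 CPM, while Irf1 stood at 52.9 and 53.4 CPM. Cxcl9, an attractant of T cells that is known as a target of interferon gamma, stood at 4.51, 8.62, 2.53, 105 and 3.13 CPM from the quiescent library to day 14. Its ratio of 41.7 (33.4 to 52.7) was the highest of all genes with at least 100 CPM, and was 14.997 (9.52 to 25.1) in cells without cycling UMIs. Its related gene Cxcl10 stood at 36.3 and 59.6 CPM. The membrane proteins Ifitm3 and Ifitm2, which block viral entry, stood at 3269.9 and 4156 CPM and at 2311 and 2112 CPM. None of the 6 genes at 20 CPM on the list of interferon ligands, receptors and sensors was called. Ifnar1 stood at 25.9 and 32.0 CPM, Ifngr1 at 251 and 284 CPM, and Jak1 at 188 and 134 CPM. Sensor genes counted on the interferon-stimulated list instead, such as Oas1a, are not among these 6. Ifnb1 had no UMI in either library and Ifng none at day 2 and 0.0998 CPM at day 4.

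Genes that present peptides on class I major histocompatibility molecules rose in 9 of 17 cases, with none lower and a median log2 ratio of 1.16. B2m, the light chain of all class I molecules, stood at 1488, 1317, 882, 3331 and 1602 CPM over the time course. Day 2 was its lowest library and day 4 its highest, 3.78-fold (3.73 to 3.83) apart. The heavy chain genes H2-D1 and H2-K1 rose 2.71-fold (2.66 to 2.77) and 2.66-fold (2.59 to 2.73), and H2-T23, H2-Q7 and H2-Q4 3.05-fold to 5.26-fold, the last 2 from near-identical copies whose reads may be shared. Tap1, which pumps peptides into the endoplasmic reticulum, rose 2.42-fold (2.20 to 2.65), Tapbp, which holds it to the heavy chain, 2.63-fold (2.53 to 2.73), and Psmb8, an immunoproteasome subunit, from 90.2 to 192 CPM. Complement genes rose in 9 of 10 cases, among them Cfb and C2, the proteases of the alternative and classical pathways, 4.35-fold (4.01 to 4.74) and 6.67-fold (5.77 to 7.74), and the inhibitor gene Serping1, 2.72-fold (2.68 to 2.76). The exception was C3, at 209 and 332 CPM. In cells without cycling UMIs only 2 of the 9 complement genes were called. Without cells that carried markers of other types, all 32 of the interferon-stimulated genes called higher were still called, with a median of 1.63, and all 9 of the antigen presentation genes, with a median of 1.15.

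Of 22 genes of resting progenitors 7 were higher at day 4 and 1, Gdf10, lower. Pi16, a marker of adventitial progenitors, stood at 2225, 394, 578, 2119 and 3523 CPM over the time course. Its ratio was 3.66 (3.603 to 3.72), and the day 4 level was close to the quiescent one. Stmn4 rose 3.36-fold (3.02 to 3.75), Tek, the angiopoietin receptor gene, 2.92-fold (2.598 to 3.295) and Entpd2, an ectonucleotidase gene, 2.80-fold (2.71 to 2.901), each still below its quiescent level. Cd34 stood at 1364, 402, 435, 865 and 1464 CPM. The list's sum was 14940 CPM at day 2 and 23202 at day 4, against 53398 in the quiescent library. In cells without cycling UMIs the sum was 26311 CPM at day 2 and 27731 at day 4, with 3 members higher and 2 lower and a median log2 ratio of 0.23, against 0.73 over all cells. The ratio of Pi16 was 2.11 (2.05 to 2.17) there. Among lineage genes, Apod and Apoe, carriers of lipids, rose 3.34-fold and 2.18-fold (1.71-fold and 1.15-fold in cells without cycling UMIs). They were the 2 called of 4 adipogenic genes at 20 CPM, and that list's median log2 ratio was -0.67. Without cells that carried markers of other types, only 1 of the 2 was still called higher. The adipocyte regulator gene Pparg stood at 5.15 and 1.497 CPM. Of 6 genes of cartilage and bone at 20 CPM, 3 were higher and none lower. Comp, a cartilage gene and also a tenocyte marker here, rose 2.45-fold from 10.9 to 26.6 CPM (1.51-fold in cells without cycling UMIs). Sox9, another cartilage gene, stood at 28.4 and 16.7 CPM.

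The lists were then followed in single cells, each thinned at random to 2500 UMIs so that depth was equal, which left out 63 cells at day 4 and none at day 2. At least 2 mitosis UMIs were found in 38.6% (36.6 to 40.6) of cells at day 2 and in 14.3% (13.1 to 15.4) at day 4, against 5.03%, 6.98% and 4.00% in the quiescent, day 1 and day 14 libraries. Unthinned, the shares at day 2 and day 4 were 67.8% and 38.2%. A cell type that lacks these or the interferon-stimulated genes was not at hand to measure free RNA. In the mural cells left out by the rule, the shares were 25.6% of 43 at day 2 and 30.8% of 107 at day 4, at medians of 5816 and 4067 UMIs. Mitosis UMIs were concentrated, with the 10% of cells with most holding 59.3% of them at day 2 and 80.7% at day 4. In contrast, the same share of cells held 25.2% and 21.7% of the collagen UMIs and 18.6% and 20.9% of the interferon-stimulated ones. The median cell held 19 collagen UMIs of 2500 at day 2 and 63 at day 4, and 20 and 29 interferon-stimulated UMIs. Of the latter list, Ifitm2 and Ifitm3 alone held 5581 of 7910 CPM at day 2 and 6268 of 12938 at day 4. Without those 2 genes, a split made after seeing the data, the median cell held 5 such UMIs at day 2 and 13 at day 4, where the 10th percentile was 5. The 10% of cells with most then held 27.0% of these UMIs at day 2 and 26.0% at day 4. Single genes were seen in fewer cells, with a UMI of Isg15 in 16.2% of unthinned cells at day 2 and 46.9% at day 4, and one of Cxcl9 in 2.37% and 19.4%.

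**Figure D4:**
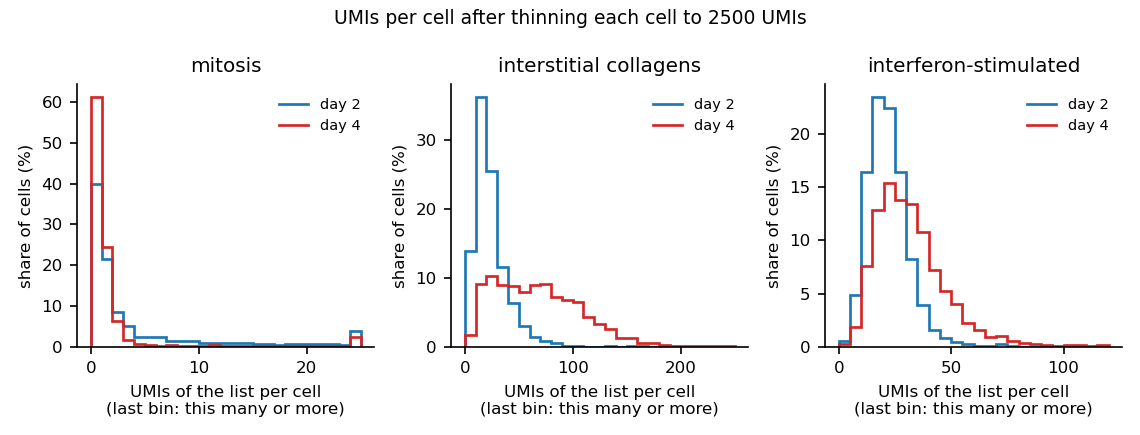
Share of cells (y axis, %) by the number of UMIs of the mitosis, interstitial collagens and interferon-stimulated lists per cell (x axis) after thinning to 2500 UMIs, for day 2 (blue) and day 4 (red). The collagen and interferon distributions shift to the right at day 4, with medians of 63 and 29 UMIs against 19 and 20, and more day 4 cells have no mitosis UMI.

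Cells in division also took part in the matrix and interferon differences. At day 2, the 929 cells with at least 2 mitosis UMIs had a mean of 18.6 ± 11.3 collagen UMIs (SD over cells of 1 library, not over replicates), and the other 1478 cells 26.4 ± 17.6. At day 4, the 534 such cells had 71.3 ± 37.5 and the other 3213 cells 66.4 ± 40.5. The ratio of day 4 to day 2 was thus 3.82 in the dividing cells and 2.52 in the others. For matricellular genes the ratios were 2.67 and 1.62, for interferon-stimulated genes 1.90 and 1.33, and for antigen presentation genes 3.31 and 2.00. The interferon-stimulated UMIs here include those of Ifitm2 and Ifitm3, which held 5581 of that list's 7910 CPM at day 2 and 6268 of 12938 at day 4. Chemokine UMIs had ratios of 0.431 and 0.614. Complement and resident progenitor genes were lower in dividing than in other cells at both days, with ratios of 0.323 and 0.384 at day 2 and of 0.677 and 0.559 at day 4. The mitosis UMIs by which the dividing cells were chosen were 9.82 ± 9.97 at day 2 and 10.3 ± 13.4 at day 4, and their DNA replication UMIs were 4.22 ± 4.36 and 2.22 ± 3.55. With a limit of at least 3 mitosis UMIs, which 722 and 300 cells met, the mitosis UMIs were 12.1 ± 10.3 and 16.7 ± 14.9. The day 4 to day 2 ratios were then 3.94 in these and 2.59 in the other cells for collagens, and 2.08 and 1.34 for interferon-stimulated genes. Their complement and resident progenitor ratios to other cells were 0.278 and 0.319 at day 2 and 0.534 and 0.364 at day 4. Their DNA replication UMIs were 4.86 ± 4.46 at day 2 and 3.30 ± 4.26 at day 4. The limit of 2 mitosis UMIs was also met by 5.03% of quiescent cells, and that of 3 by 0.662%.

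**Figure D5:**
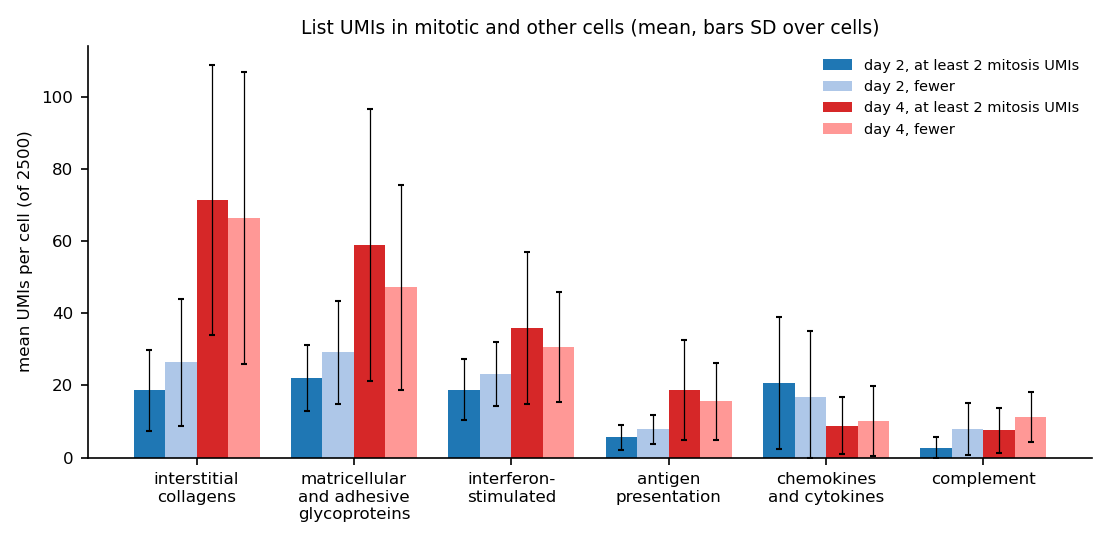
Mean UMIs per cell (of 2500, y axis) of 6 gene lists in cells with at least 2 mitosis UMIs (dark bars) and with fewer (light bars), at day 2 (blue) and day 4 (red). Error bars are the SD over cells of 1 library. Dividing cells have fewer collagen UMIs than other cells at day 2 (18.6 against 26.4) and about as many at day 4 (71.3 against 66.4).

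Cells rich in interferon-stimulated UMIs, those of Ifitm2 and Ifitm3 included, had about as many matrix UMIs as other cells. At day 4, the 375 cells of the highest 10%, with at least 51 such UMIs, had a mean of 70.4 ± 36.4 collagen UMIs against 66.7 ± 40.5 in the other 3372 cells. Their matricellular UMIs were 48.4 ± 22.3 against 48.99 ± 30.9. Antigen presentation UMIs, in contrast, were 27.0 ± 15.8 against 14.8 ± 10.0. At day 2, the 241 cells of the highest 10%, with at least 33 such UMIs, had 9.33 ± 4.47 antigen presentation UMIs against 6.71 ± 3.85.

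The cells without cycling UMIs numbered 459 at day 2 and 1137 at day 4, or 19.1% and 30.3% of the thinned cells. The same limit kept only 39.6% of quiescent and 37.5% of day 14 cells, so being left out does not mark a cell as dividing. Unthinned, the cells without cycling UMIs still held 149 and 107 CPM of the mitosis list at day 2 and day 4. They held 187 and 185 CPM of the DNA replication list. The collagen list had 8 higher members with a median log2 ratio of 1.16, the matricellular list 9 with 1.15, the interferon-stimulated list 26 with 1.25 and the antigen presentation list 5 with 0.75, and the chemokine list 9 lower with -0.78. Other lists lost most of their higher members: the complement list went from 9 to 2, the growth factor and elastic fibre lists from 9 to 3 each, the proteoglycan list from 7 to 2, the protease list from 7 to 3 and the collagen processing list from 5 to 1. In these cells Col1a1 was 4.23-fold (4.12 to 4.33) higher at day 4, Postn 6.95-fold (6.59 to 7.33) and Isg15 6.24-fold (5.31 to 7.38). Spp1 was 2.55-fold (2.41 to 2.70) higher there, against 8.67-fold over all cells, and Acta2 4.25-fold (3.61 to 5.03), against 1.90-fold. The ribosome biogenesis list, in contrast, had no member lower in these cells, and its median was 0.10.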

How the data were processed

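Single-cell transcripts of sorted progenitors were measured in 5 libraries, 1 per time point, and the day 2 and day 4 libraries were compared. The values are the deposited UMI counts of each gene in each barcode, whole numbers made by the authors with the 10x Chromium 3' chemistry of version 2, per the labels' protocols. Per the submitters' processing notes, Cell Ranger and the mm10 build were used. The version and how cells were called are not stated there. Of 28001 features, 27645 had a record in GENCODE M21 on GRCm38.

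Raw counts were summed over the kept cells and scaled to CPM. Ratios have exact conditional binomial 95% intervals and shares Clopper-Pearson intervals. UMI intervals cover counting error only. Log2 ratios carry a prior of 1 CPM. No test was made, since each group is 1 library. edgeR 4.0.16 (TMM) and DESeq2 1.42.0 in R 4.3.3 served only for other scaling factors. The scripts were tested on simulated data. No doublet caller was run, so doublets remain, and an alternative left out cells above the 97.5th percentile of UMIs.

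The text names the 15 highest and the 15 lowest genes by log2 ratio among those reaching 100 CPM, leaving out haemoglobin, ribosomal protein, mitochondrially encoded and predicted genes. Up to 8 members of each of 8 core lists and up to 4 of each other list, of largest absolute log2 ratio and reaching 20 CPM, were added, with Hic1, Pdgfra, Ly6a, Cd34 and tdTomato. Further list members are named where they were exceptions or partners of these and were chosen after their values were seen. The cells, the 29 gene lists and the rule were chosen with earlier results of these data known. Mx2, 1 of the 48 interferon-stimulated genes, and 2 marker and list genes, Trbc2 and Cebpd, had no row in the count table used here. Some list members that are in the counts are not reported here by name. For Ltbp4 and Ccl19, which have 2 gene IDs, the ID with more counts was used.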

Additional observations from a re-analysis of the deposited data

How the results depend on the processing

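The numbers of genes higher and lower at day 4, 384 and 209, stayed within 1.5 times under other scaling, other limits on cells, thinning, and equal weight per cell. They were 231 and 78 in cells with no mitosis or DNA replication UMI, 659 and 360 at a limit of 5 CPM, 3781 and 1852 with no limit, 238 and 125 at 50 CPM, 150 and 67 at a ratio of 3, and 760 and 603 at a ratio of 1.5. Of the 126 named genes that were called, 121 kept the call with TMM and with DESeq2 factors, 106 with equal weight per cell, and 104 after thinning. In cells with no mitosis or DNA replication UMI after thinning, 77 of the 110 outside those lists had the same call. Over all called genes, named or not, 211 of the 384 higher and 58 of the 209 lower ones kept it. The share of cells with at least 2 mitosis UMIs was 48.3% at day 2 and 21.9% at day 4 after thinning to 4000 UMIs, and 67.8% and 38.2% unthinned. It was 29.996% and 8.01% with at least 3 UMIs, a limit used after seeing the data. The median log2 ratio of the early response list, 0.02, turned to -0.10 with TMM, -0.0938 with DESeq2 factors, -0.0708 without mitochondrially encoded and ribosomal protein genes, -0.000754 with no limit on tenocyte and mural markers and -0.17 in cells with no mitosis or DNA replication UMI. In those cells the medians of the G1 list (0.0767) and the ribosome biogenesis list (0.10) also turned. The cause was not tested. No paired analysis was possible because each time point is 1 library. With 1 library per time point, depth limits only the counting intervals, which were widest for genes with few counts at day 2, such as Ifi44 and Mmp13.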

Other observations

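Genes of sterol synthesis were among the lowest at day 4, and a list of 20 enzymes of that pathway was drawn up after this was seen, so its count describes these libraries only. Of 19 members reaching 20 CPM, 17 were lower at day 4 and none higher, with a median log2 ratio of -2.30, and their summed level went from 2382 to 521 CPM. The sum was 836 CPM in quiescent muscle, 1224 on day 1 and 815 on day 14, so that day 2 was the highest of the 5 libraries and day 4 the lowest. Idi1, which isomerises isopentenyl diphosphate, stood at 61.6, 94.8, 178, 18.2 and 54.3 CPM from the quiescent library to day 14 and was 9.76-fold (8.94 to 10.7) lower at day 4 than at day 2. Fdps, the farnesyl diphosphate synthase gene, was 7.75-fold (7.41 to 8.11) lower, Sqle, the squalene epoxidase gene, 7.29-fold (6.69 to 7.96), and Lss, the lanosterol synthase gene, 9.28-fold (7.198 to 12.1). The members not called were Pmvk, at 81.7 and 50.2 CPM, and Ebp, at 142 and 100.6 CPM. In cells with no mitosis or DNA replication UMI after thinning, Idi1 was 9.76-fold and Fdps 8.06-fold lower, about as in all cells.

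For 2 other called genes a single cell held much of the day 4 counts. Car3, a carbonic anhydrase gene of muscle and fat, was 72.1-fold higher with 92.7% of its counts in 1 cell, and 5.27-fold (2.87 to 10.4) higher without it, at 2.16 CPM. Ccl5, a T cell attractant, was 32.1-fold higher with 40.5% of its counts in 1 cell, and 19.1-fold (13.6 to 27.9) without it.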
